A study of Mus musculus with 4 samples.

Results

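The integrin receptors of muscle cells are described here through 10 genes, chosen by name: the alpha subunit genes Itga7, Itga3, Itga6, Itga5, Itgav and Itga4, the beta subunit genes Itgb1, Itgb5 and Itgb3, and Itgb1bp2, whose product melusin binds the tail of the beta subunit encoded by Itgb1. All 10 were found by their symbol in each of the 4 libraries, among 24850 entries with a gene symbol in the total RNA tables and 24992 in the polyA tables. The study followed C2C12, mouse myoblasts in culture that leave the cell cycle and fuse when growth medium with fetal bovine serum is replaced by differentiation medium (DM) with horse serum. Total RNA depleted of rRNA was sequenced from proliferating myoblasts (MB, DM -24 h) and from myotubes (MT, DM 72 h). PolyA RNA was sequenced from MT at DM 48 h that had received a control siRNA (si-NC) or an siRNA against the RNA-binding protein hnRNPL (si-hnRNPL). All 4 libraries came from this single line, no transgene or gene deletion is stated for any of them, and each condition is 1 library, so the differences below were not checked by replicates and carry no p-value.

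An integrin is a pair of 1 alpha and 1 beta chain that spans the membrane and ties the extracellular matrix to the actin cytoskeleton. The alpha chain largely sets which ligand is bound: the products of Itga3, Itga6 and Itga7 bind laminins, those of Itga5 and Itgav bind ligands that carry an RGD motif such as fibronectin and vitronectin, and that of Itga4 binds fibronectin and VCAM1. In skeletal muscle the pair encoded by Itga7 and Itgb1 is the main laminin receptor of the muscle fibre, and loss of the human homologue of Itga7 causes a congenital myopathy.

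Levels are FPKM, fragments scaled by transcript length and library size, so that genes of 1 library can be set side by side, and the range after each level is the 95% interval that Cufflinks gave it, which covers counting and assignment error within that library only. Changes are log2((FPKM + 1) ratio), which makes the changes of weakly expressed genes look smaller than they are, and a gene was called higher or lower at a log2 change of 0.58 or more in either direction, a fold of about 1.5. Read as counting error alone, the interval widths would correspond to between 14592480 and 59960176 fragments per library. Because they also hold assignment error, these numbers are not a measured depth. Markers of differentiated muscle followed the labels: the 6 measured ones summed to 14.0 FPKM in MB, 1369 in MT, 1988 in si-NC and 2874 in si-hnRNPL. Myog, a regulator of muscle differentiation, stood at 0.695 FPKM in MB and 251 in MT. The 5 markers of cycling cells were not absent from any library and summed to 515 FPKM in MB, 88.8 in MT, 215 in si-NC and 154 in si-hnRNPL. Of markers of other cells, the 4 of endothelium summed to between 0.0547 and 0.368 FPKM over the 4 libraries, with Pecam1 at 0 in si-hnRNPL, the 4 of leukocytes to between 0.514 and 1.26, with Ptprc at 0 in MB, the 3 of adipocytes to between 0.0446 and 0.251, with Plin1 at 0 in all 4 libraries, and the 3 of Schwann cells to between 0.239 and 0.756, with Sox10 at 0 in both polyA libraries. In bulk RNA, fewer cells of a type and less RNA per cell cannot be told apart, and this holds for every level below.

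**Figure D1:**
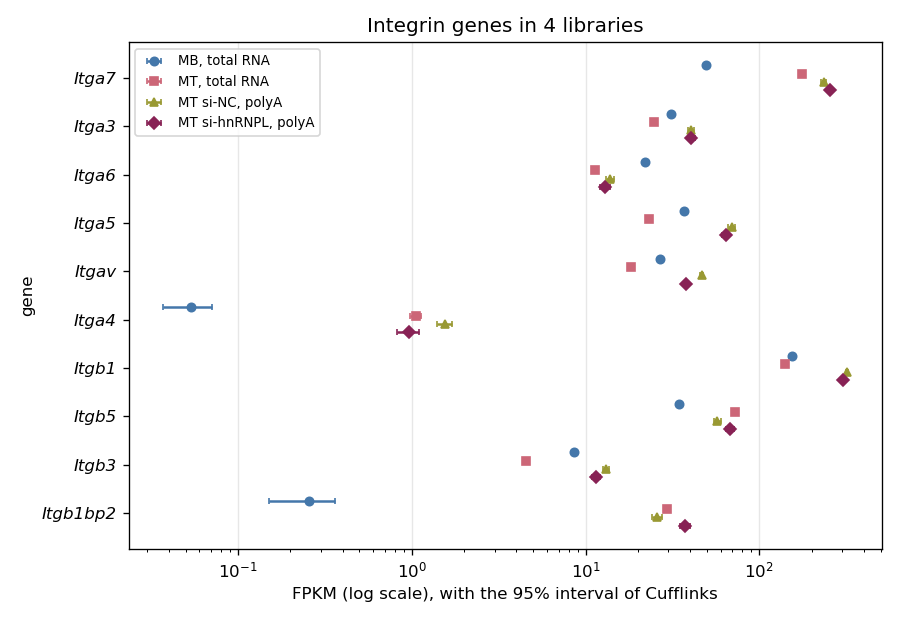
FPKM of each of the 10 genes in the 4 libraries, on a log axis, with points for the level and bars for the 95% interval of Cufflinks, which is narrower than the symbol for many points. Itga4 in MB (0.0536 FPKM) and Itgb1bp2 in MB (0.256 FPKM) lie far to the left of every other point of the same gene.

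Comparing MT with MB addressed how the set of receptors differs between dividing and fused muscle cells. Itga7, Itgb5, Itga4 and Itgb1bp2 were higher in MT, Itga6, Itgb3 and Itga5 were lower, and Itgav, Itga3 and Itgb1 were neither. That is 4 of 10 higher, where 15.4% of 11758 named genes with at least 1 FPKM in either library were higher, and 3 of 10 lower, where 28.5% were lower. Itga4 and Itgb1bp2 reached 1 FPKM in MT only, and of the 8 members with at least 1 FPKM in both libraries 2 were higher. The median log2 change of the 10 genes was -0.22, beside -0.20 for those 11758 genes. The largest of these changes reached a log2 value of 4.60 and the lowest was -0.89, and in none of the 10 genes did the intervals of MB and MT overlap.

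The deposited scale matters for the lower calls. The median log2 change was -0.23 over genes with at least 1 FPKM in both libraries of total RNA, and scaling these genes to an equal sum or to an equal upper quartile would raise every MT value by 0.39 or 0.36 on the log2 scale. After centring on that median, 22.7% of the 11758 genes were higher and 18.6% lower, and after scaling to an equal sum 27.2% were higher and 15.2% lower. All 4 higher members stayed higher under these 3 scalings, while 1 member (Itga6) was still called lower after centring and 0 were after either other scaling. Itgb1 changed sign under all 3, and Itga3 under the 2 that equalise the sum or the upper quartile.

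**Figure D2:**
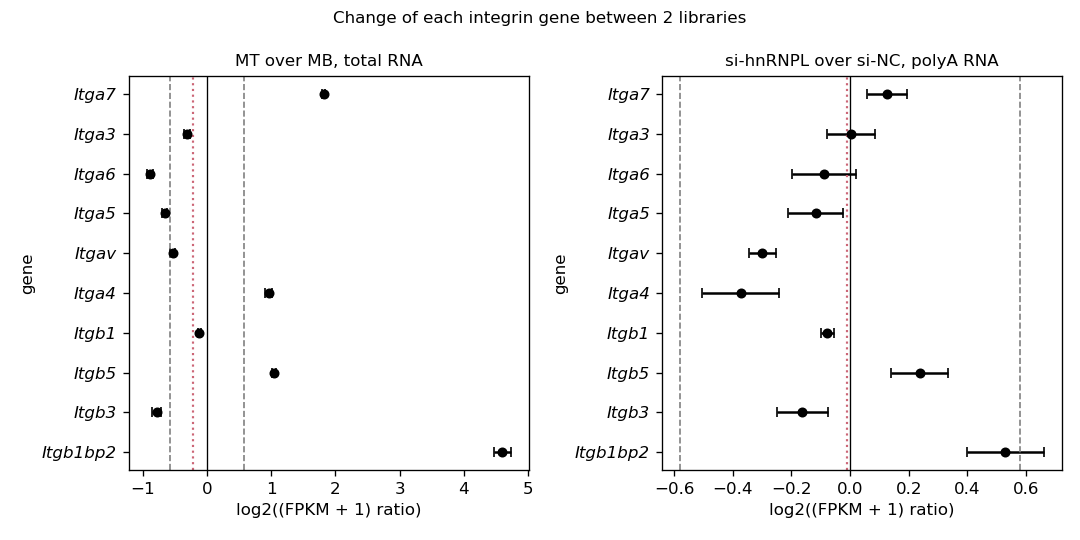
Log2((FPKM + 1) ratio) of each gene in MT over MB (left) and in si-hnRNPL over si-NC (right), with 95% intervals built from both libraries, dashed lines at the calling threshold of 0.58 and a dotted line at the median of all genes with at least 1 FPKM in both libraries. On the left 4 genes lie right of the upper threshold and 3 left of the lower one, and on the right all 10 points lie between the thresholds.

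Among the laminin receptors, Itga7 (chr10:128370869-128395340, mm9, plus strand) had 49.2 FPKM in MB (48.5 to 50.0) and 176 in MT (175 to 178). The level in MT was 3.58 times that in MB, a log2 change of 1.82 (1.79 to 1.84). Its locus shares 8 bases with that of Mettl7b on the opposite strand, which was at or under 0.172 FPKM in all 4 libraries. Itga6 (chr2:71624996-71696484, plus strand) went the other way, with 21.9 FPKM in MB (21.4 to 22.4) and 11.3 in MT (11.0 to 11.7), a log2 change of -0.89 (-0.94 to -0.85). Itga3 (chr11:94905789-94938125, minus strand) had 31.2 FPKM in MB (30.6 to 31.8) and 24.8 in MT (24.3 to 25.4), and its log2 change of -0.32 (-0.36 to -0.27) was under the threshold. The 3 laminin-binding subunits thus comprised 1 higher, 1 lower and 1 not called.

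Both RGD-binding alpha genes had less signal in MT. Itga5 (chr15:103174718-103197179, minus strand), the partner of Itgb1 in the classical fibronectin receptor, had 37.1 FPKM in MB (36.4 to 37.7) and 23.1 in MT (22.6 to 23.6), a log2 change of -0.66 (-0.70 to -0.62) that was -0.43 after centring and then not called. Itgav (chr2:83564554-83647074, plus strand), which pairs with several beta chains including those of Itgb3 and Itgb5, had 27.0 FPKM in MB (26.5 to 27.4) and 18.3 in MT (17.9 to 18.6). Its log2 change of -0.54 (-0.57 to -0.50) lay just under the threshold. Itga4 (chr2:79095583-79173271, plus strand), a receptor of fibronectin and VCAM1, was the least abundant of the 10 in both libraries, with 0.0536 FPKM in MB (0.0369 to 0.0704) and 1.05 in MT (0.981 to 1.12). Its ratio of levels was 19.6, but its log2 change was 0.96 (0.91 to 1.02) because of the added 1, and the level in MB rests on about 41 fragments. The locus shares 624 bases with Cerkl on the opposite strand, which had at most 0.0863 FPKM in any library.

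Of the beta genes, Itgb1 (chr8:131209554-131257479, plus strand), the common partner of the alpha chains above, was close to level: 153 FPKM in MB (152 to 155) and 141 in MT (140 to 142), a log2 change of -0.12 (-0.14 to -0.10) that became 0.11 after centring. Itgb5 (chr16:33829751-33949424, plus strand) had 34.6 FPKM in MB (33.8 to 35.3) and 72.3 in MT (71.2 to 73.4), 2.09 times as much, with a log2 change of 1.04 (1.01 to 1.08). Itgb3 (chr11:104469314-104531785, plus strand) had 8.58 FPKM in MB (8.31 to 8.85) and 4.55 in MT (4.36 to 4.74), a log2 change of -0.79 (-0.85 to -0.72) that was -0.56 after centring and then not called. The genes for these alternative partners of the Itgav product therefore differed in opposite directions, and the ratio of Itgb5 to Itgb3 levels was 4.03 in MB and 15.9 in MT.

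Itgb1bp2 (chrX:98644448-98648880, plus strand), which encodes a protein found mainly in heart and skeletal muscle, had 0.256 FPKM in MB (0.151 to 0.360) and 29.5 in MT (28.4 to 30.6). It was nearly silent in MB, where its level rests on about 24 fragments, and its level in MT was 115 times as high. The log2 change was 4.60 (4.47 to 4.73).

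The order of levels also differed. In MB it ran from Itgb1 through Itga7, Itga5, Itgb5, Itga3, Itgav, Itga6 and Itgb3 to Itgb1bp2 and Itga4, and in MT from Itga7 through Itgb1, Itgb5, Itgb1bp2, Itga3, Itga5, Itgav, Itga6 and Itgb3 to Itga4. No neighbours in either order had overlapping intervals. Itgb1 had 3.12 times the level of Itga7 in MB and 0.801 times in MT.

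The share of each gene in the summed FPKM of 18 alpha subunit genes, 169 FPKM in MB and 261 in MT, describes the make-up of the alpha chains at the RNA level. Itga7 held 29.2% of the sum in MB (28.8 to 29.6) and 67.6% in MT (67.3 to 67.9). Every other abundant alpha gene had a smaller share in MT, whatever its ligand. Itga3 held 18.5% in MB and 9.52% in MT, Itga6 12.99% and 4.35%, Itga5 22.0% and 8.86%, and Itgav 16.0% and 7.01%. The laminin-binding genes together went from 60.7% (60.3 to 61.0) to 81.5% (81.2 to 81.7), all of it through Itga7, and the RGD-binding genes from 38.0% (37.6 to 38.4) to 15.9% (15.7 to 16.1). The 12 alpha genes outside the named set held 1.33% in MB and 2.25% in MT. Such shares do not depend on the scale of a library, but each falls when another gene of the sum rises. Among 9 beta genes, Itgb1 held 75.2% of the summed FPKM in MB and 61.2% in MT, and Itgb5 16.9% and 31.4%.

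**Figure D3:**
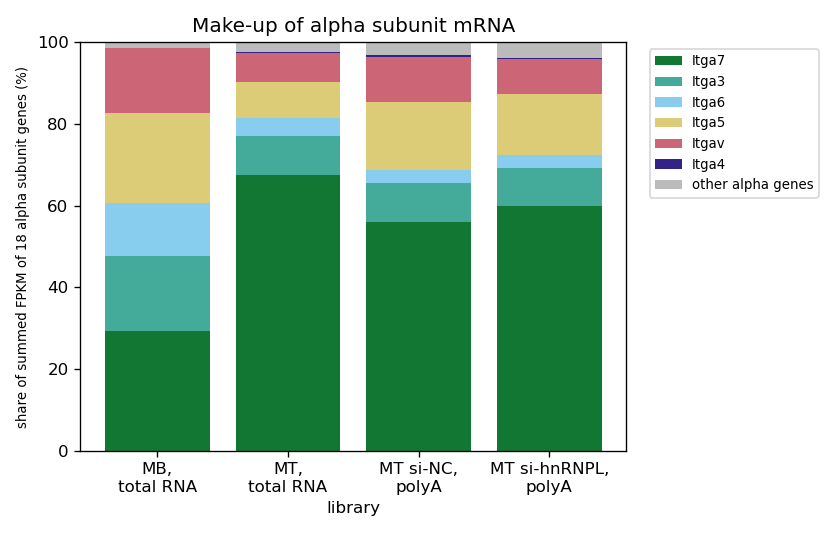
Share of each alpha subunit gene in the summed FPKM of 18 alpha subunit genes (percent), with 1 bar per library. The Itga7 segment takes 29.2% of the bar for MB and 67.6% of the bar for MT, and the polyA libraries, made by another method at another time, are at 55.9% and 59.9%.

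The bases before the transcript start were read for motifs, since E-boxes (CANNTG, N being any base) are the sequences bound by MyoD and its relatives. RefSeq promoter windows on GRCm38.p6, another build than the mm9 of the loci above, were found for 6 of the 10 genes. Itga7, Itga6, Itgb3 and Itgb1bp2 had no entry. The 250 bases before the start are shown 5′ to 3′ for the matched genes that were called in MT over MB, with E-boxes in capitals. The windows are chr2:79255176-79255425 on the plus strand for Itga4, chr16:33829415-33829664 on the plus strand for Itgb5 and chr15:103366792-103367041 on the minus strand for Itga5.
Itga4: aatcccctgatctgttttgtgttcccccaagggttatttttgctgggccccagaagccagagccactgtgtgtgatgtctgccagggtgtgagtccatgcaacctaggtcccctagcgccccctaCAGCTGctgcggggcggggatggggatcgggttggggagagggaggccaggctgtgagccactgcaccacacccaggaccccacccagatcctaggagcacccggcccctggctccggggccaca
Itgb5: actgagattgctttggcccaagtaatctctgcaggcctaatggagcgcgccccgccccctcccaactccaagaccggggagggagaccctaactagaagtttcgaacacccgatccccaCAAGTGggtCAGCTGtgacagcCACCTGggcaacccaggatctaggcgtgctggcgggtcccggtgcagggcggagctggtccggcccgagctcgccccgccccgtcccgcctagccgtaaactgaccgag
Itga5: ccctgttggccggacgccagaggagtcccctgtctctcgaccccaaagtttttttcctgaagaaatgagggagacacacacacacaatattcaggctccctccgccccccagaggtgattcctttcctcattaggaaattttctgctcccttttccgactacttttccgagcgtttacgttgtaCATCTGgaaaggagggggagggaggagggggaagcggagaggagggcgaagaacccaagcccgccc
The Itgb5 window held 3 E-boxes, of which the first reads CAAGTG, the next is CAGCTG as in Itga4, and the last reads CACCTG. The Itga4 window held 1 (CAGCTG), and the Itga5 window, of a gene that was lower, also held 1 (CATCTG). Both Itga3 windows held 1 and those of Itgav and Itgb1 held 0. The motif reads as CANNTG on either strand. Of 32851 windows of this length, 66.2% held CANNTG, 13% held CAGCTG and 17.2% held CACCTG on either strand, so such matches are common and describe these letters only.

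In MB and MT the remaining integrin genes were mostly near 0. Of 19 further genes of the family, 6 reached 1 FPKM, each in only 1 of MB and MT. Each passed the filter only through the library where it was high, so they are given as values alone. Itgb7, best known from lymphocytes, had 5.31 FPKM in MB and 0.105 in MT. Itgb6, another partner of the Itgav product, had 0.972 FPKM in MB and 8.26 in MT. Itga10, a collagen-binding subunit, had 0.260 and 1.78, and Itgbl1, an integrin-like secreted protein, had 0.0330 and 1.37. Leukocyte markers were near 0 beside the Itgb7 value: in MB, Ptprc was at 0 and Cd68, the most abundant, was at 1.13 FPKM.

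Of 22 genes for extracellular ligands, 18 reached 1 FPKM, and 6 of these were higher in MT, 7 lower and 5 neither, with a median log2 change of 0.08. One of the higher ones, Lama4, reached 1 FPKM in MT only. Of the 11758 named genes, 15.4% were higher and 28.5% lower. Postn, which encodes periostin, a ligand of the integrins that hold the Itgav product, went from 3.55 FPKM in MB to 91.7 in MT. Lama2, the laminin chain of the muscle fibre's basement membrane, went from 4.21 to 15.9. In contrast, Tnc (tenascin C) was at 73.0 in MB and 10.8 in MT, and Npnt (nephronectin) at 56.9 and 16.7.

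The cytoplasmic side differed mainly in 1 direction on the deposited scale. Of 28 adaptors, kinases and actin linkers of integrin adhesions, 25 reached 1 FPKM, of which 11 were lower in MT, 1 was higher and 13 were neither, with a median log2 change of -0.55. Of the 11758 named genes, 28.5% were lower and 15.4% higher. After centring on the median, Ptk2 (-0.54), Parva (-0.52), Ilk (-0.37) and Lims2 (-0.37) of the 11 adaptor genes were no longer called lower. On that scale 18.6% of the 11758 genes were lower and 22.7% higher. Parvb, a parvin that binds integrin-linked kinase, had 19.5 FPKM in MB and 6.93 in MT, Actn1, an alpha-actinin, 106 and 47.8, and Tns1, a tensin, 27.5 and 12.5. The single higher gene was Flnc, the muscle filamin, with 26.3 FPKM in MB and 46.9 in MT, named after its values were seen. Of 9 membrane proteins known to associate with integrins, 4 were lower, 1 was higher and 4 were neither, with a median of -0.58, beside the same shares of all genes. Of these 4, Cd151 (-0.39) was no longer called lower after centring. Plaur, the urokinase receptor, had 70.0 FPKM in MB and 3.55 in MT, while the tetraspanin gene Cd82 had 43.1 and 144. Adam12, a metalloprotease of fusing myoblasts, had 14.9 and 7.19, and Cd47 had 28.5 and 15.3.

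**Figure D4:**
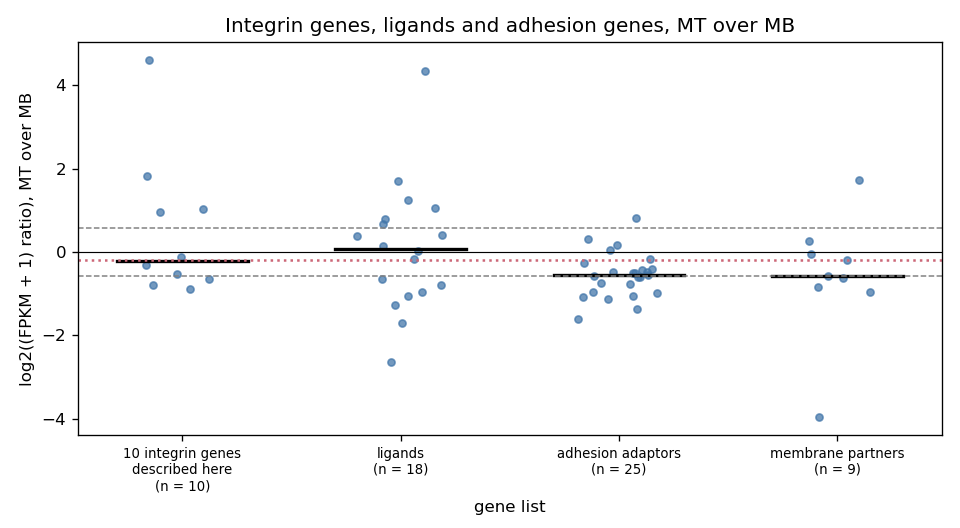
Log2((FPKM + 1) ratio) in MT over MB for the 10 integrin genes and for 3 lists of related genes with at least 1 FPKM in either library, with 1 point per gene, a bar at each median, dashed lines at the threshold of 0.58 and a dotted line at the median of all genes. The bars of the adhesion adaptors (-0.55) and membrane partners (-0.58) lie below the dotted line (-0.20) and that of the ligands (0.08) lies above it.

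Several values moved with this comparison. The 6 differentiation markers were all higher in MT (median log2 change 6.77), the 5 cycling markers were all lower (-2.28), and the nuclear RNAs Malat1 and Neat1 went from 161 to 628 FPKM and from 14.3 to 48.8. The part of the number of fused cells, of cell division and of nuclear RNA in the integrin values was not tested, and time in DM and MB against MT cannot be told apart. Transcript length and GC content had rank correlations of 0.14 and -0.12 with the change over 10507 protein-coding genes.

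Transcript units assembled from the reads outside named genes were a readout that the choice of genes did not use. None of the 36780 units lay inside the loci of the 10 genes. Within 5 kb of a locus there were 8 units at 7 of the genes, with at most 0.536 FPKM in MB and 0.610 in MT, and 0 were called in either direction, where 19.8% of all units were higher in MT and 3.09% lower. Of these, the unit with the highest level in MT starts 106 bases before Itga3 (chr11:94938232-94942527), with 0.274 FPKM in MB (0.218 to 0.331) and 0.610 in MT (0.528 to 0.693). The unit before Itga5 had 0.154 FPKM in MB and 0.0367 in MT, a log2 change of only -0.15. All of these levels are so near 0 that the added 1 keeps most changes under the threshold. The lack of calls therefore says little about these units, and the shares of all units include units of any level.

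Genes were also ranked by how alike their 4 values of log2(FPKM + 1) were to those of the alpha gene with the largest rise and the one with the largest fall, as the distance after centring each gene, over 11578 genes and 4 libraries of which 2 pairs differ in RNA preparation. Nearest to Itga7 were Ucp2, a mitochondrial carrier (distance 0.103, with 10.1, 36.8, 53.6 and 53.3 FPKM in MB, MT, si-NC and si-hnRNPL), the microRNA host gene Mir22hg (0.118) and the lysosomal protease gene Ctso (0.165). Nearest to Itga6 were Nol9 (0.0292), Cwf19l1 (0.0308) and Nol11 (0.0321), of which Nol9 and Nol11 encode nucleolar proteins. With 4 libraries, such likeness is a description.

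Comparing si-hnRNPL with si-NC addressed whether the receptors depend on hnRNPL in differentiating cells. The targeted gene, Hnrnpl, had 95.1 FPKM in si-NC (92.7 to 97.5) and 85.9 in si-hnRNPL (83.1 to 88.7), 90.4% of the control, so the comparison is between a pair of libraries that differ little in the targeted RNA. None of the 10 genes was called higher, where 1.44% of 11369 named genes were, and none was called lower, where 0.888% were. The median log2 change was -0.08, beside -0.010 for the 11369 genes. Scaling to an equal sum would move every si-hnRNPL value by -0.11 on the log2 scale, which puts Itga3 below 0 (-0.11) and Itga7 at 0.013, with 0 genes called. The polyA tables differ from the total RNA tables in RNA preparation, time in DM and some gene symbols (the same fusion gene is listed as Tmem8c in the one and Mymk in the other), so no change was computed between the pairs, and values given over all 4 libraries are descriptions that hold these differences.

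The largest change belonged to Itgb1bp2, with 25.8 FPKM in si-NC (24.1 to 27.4) and 37.6 in si-hnRNPL (35.1 to 40.2), 1.46 times as much. Its log2 change of 0.53 (0.40 to 0.66) missed the threshold, which lies inside that interval. Itgb5 had 57.5 FPKM (54.7 to 60.2) and 68.0 (64.6 to 71.3), a log2 change of 0.24 (0.14 to 0.34). Itga7 had 235 (228 to 243) and 257 (248 to 266), a log2 change of 0.13 (0.06 to 0.19). All 3 of these were also higher in MT than in MB, and their intervals in si-NC and si-hnRNPL did not overlap. Each was also set beside the 500 genes nearest to it in mean level. Of these, 99% had a lower change than Itgb1bp2 and 89.2% a lower change than Itgb5. For Itga7 it was 49.4%, so its change was ordinary for a gene of its level.

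Itga4, the other gene higher in MT, went the other way, with 1.55 FPKM in si-NC (1.40 to 1.69) and 0.965 in si-hnRNPL (0.827 to 1.10). Its log2 change was -0.37 (-0.51 to -0.24), and with a pseudocount of 0.1 or 0.01 in place of 1 it was -0.63 or -0.67 and would be called lower. Itgav had 46.5 FPKM (45.7 to 47.4) and 37.6 (36.7 to 38.6), a log2 change of -0.30 (-0.34 to -0.25). For both genes the level in si-hnRNPL was the lower one, but neither reached the threshold at a pseudocount of 1. Of the 500 genes nearest to each in mean level, 5.6% had a lower change than Itga4 and 4.6% a lower change than Itgav.

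Itgb3 had 13.1 FPKM in si-NC (12.5 to 13.6) and 11.6 in si-hnRNPL (11.0 to 12.2), a log2 change of -0.16 (-0.25 to -0.08), and the intervals lay just apart. Itgb1, the most abundant of the 10 in both polyA libraries, had 320.0 (317 to 323) and 303 (299 to 307), a log2 change of -0.08 (-0.10 to -0.06). In the remaining 3 genes the intervals of the libraries overlapped. Itga5 had 69.4 (66.2 to 72.6) and 63.9 (60.8 to 67.0), Itga6 had 13.9 (13.1 to 14.6) and 12.97 (12.2 to 13.8), and Itga3 had 40.6 (39.0 to 42.1) and 40.7 (38.9 to 42.4). Their log2 changes were -0.12 (-0.21 to -0.02), -0.09 (-0.20 to 0.02) and 0.0028 (-0.08 to 0.08). In the order of levels, Itga6 and Itgb3 had overlapping intervals in si-NC, and in si-hnRNPL Itgb5 overlapped Itga5 and Itgav overlapped Itgb1bp2.

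In the alpha sum, which was 421 FPKM with si-NC and 429 with si-hnRNPL, Itga7 held 55.9% (55.0 to 56.9) and 59.9% (58.9 to 60.9). The RGD-binding genes held 27.6% (26.8 to 28.3) and 23.7% (22.9 to 24.4). Among the beta genes, Itgb1 held 80.8% and 78.1%.

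In this pair the change of a gene moved with the length and base composition of its transcript. Over 10018 protein-coding genes the rank correlation of the log2 change was -0.45 with transcript length and 0.42 with GC content, each point being a gene of the same 2 libraries. Itga4 has the longest transcript of the 10, 9830 bases, followed by Itgav with 7054, and Itgb1bp2 has the shortest, 1314. After the median change of genes of like length and like GC content was taken out, a step chosen after seeing the data, Itga4 was at -0.16, Itgav at -0.14, Itgb5 at 0.19 and Itgb1bp2 at 0.42. Each of these values thereby moved towards 0, and that of Itgb1bp2 stayed the highest of the 10.

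**Figure D5:**
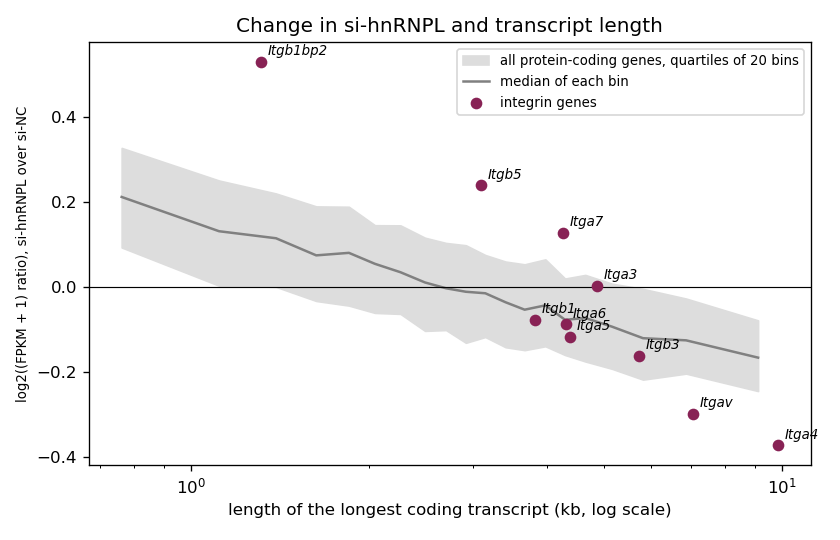
Log2((FPKM + 1) ratio) in si-hnRNPL over si-NC against the length of the longest coding transcript (kb, log axis), with the median (line) and quartiles (band) of all protein-coding genes in 20 bins and 1 point per integrin gene. Itgb1bp2 (0.53), Itgb5 (0.24) and Itga7 (0.13) lie above the band, Itgav (-0.30) lies below it, and Itga4 (-0.37), past the midpoint of the last bin, is the lowest point.

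Few genes of the related lists were called, as were few genes of any kind: 1.44% of 11369 named genes were higher and 0.888% lower. Of the other integrin genes 4 reached 1 FPKM and 0 were called, the adaptors had 0 called of 25 and the membrane partners 0 of 9. Among 17 ligands only Tnc was called, lower, at 46.9 FPKM under si-NC and 30.5 under si-hnRNPL (log2 change -0.60). The next largest ligand changes were also lower but not called: Nid1 (-0.41), Lamb1 (-0.33) and Lamc1 (-0.25), each with intervals apart. Transcript length and GC content, with which changes moved in this pair, were not taken out of these ligand values. Beside these, 2 of 6 differentiation markers were higher in si-hnRNPL, Ckm from 45.0 to 74.3 FPKM and Acta1 from 1009 to 1537, and 2 of 5 cycling markers were lower, Mki67 from 24.3 to 15.5 and Top2a from 64.3 to 42.2. The medians of these marker lists were 0.47 and -0.46, and their part in the values of Itgb1bp2, Itgb5 and Itga7 was not tested.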

How the data were processed

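The 4 deposited tables, 1 per condition, were used. According to the methods, the authors trimmed reads, aligned what remained to mm9 (TopHat), obtained abundances from Cufflinks and called changes by fold without replicates. The authors deposited FPKM values with 95% intervals, loci and a status. Strand handling in counting was not given in the sources used here.

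Genes were matched by symbol. Changes were log2((FPKM + 1) ratio), called at 0.58 in either direction, with intervals from both half-widths in quadrature. Background genes had a symbol, status OK and at least 1 FPKM in either library. The fragment number was (2 x FPKM / (upper bound - FPKM)) squared. Longest coding transcripts came from GENCODE vM1 and promoter windows from RefSeq (GRCm38.p6). Length and GC content were taken out as medians of 20 bins of each, over 3 rounds. The members and lists were chosen with earlier results of these data known. Markers at 0, genes that overlap a member, Lama4, Flnc, genes that lost their call after centring and other laminin chains in MT over MB were chosen after their values were seen. Besides these and Hnrnpl, the text names all members, up to 4 genes per list with the largest change, and 3 like genes each for Itga7 and Itga6. A gene that this rule selects is not reported here. Scripts used matplotlib 3.10.9, scipy 1.17.1, pandas 2.3.3 and numpy 2.4.6 under Python 3.11.15 and were tested on simulated data.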

Additional observations from a re-analysis of the deposited data

How the results depend on the processing

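In MT over MB, 4 of the 10 genes were called higher and 3 lower. The number higher was 4 with pseudocounts of 0.1 or 0.01 and under all 3 scalings, 3 at a log2 threshold of 1 and 3 after removing length and GC content. It was 2 among the 8 genes with at least 1 FPKM in both libraries, since Itga4 and Itgb1bp2 have under 1 FPKM in MB. Under that filter 1289 of 10739 named genes were higher and 3092 lower. The number lower was 0 at a threshold of 1, 1 after centring on the median of all genes, and 0 after scaling to an equal sum or an equal upper quartile. It was 3 under the other alternatives. Removing length and GC content, chosen after seeing the data, left Itga4 (0.54) and Itga5 (-0.50) uncalled and called Itgav lower (-0.73). The median of -0.22 became 0.0080 after centring, 0.17 with an equal sum, 0.13 with an equal upper quartile and -0.43 over the 8 genes with at least 1 FPKM in both libraries. No called gene changed sign under any alternative.

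In si-hnRNPL over si-NC, 0 genes were called in either direction under all alternatives except pseudocounts of 0.1 and 0.01, each of which called 1 lower (Itga4). With the 6 alpha genes alone as the denominator, Itga7 held 29.6% of the sum in MB, 69.2% in MT, 57.8% under si-NC and 62.2% under si-hnRNPL. With 1 library per condition no replicate could be left out. No paired analysis was possible because each condition is 1 library and the labels give no replicate numbers. No interval includes culture-to-culture variation, so the spread between cultures is unknown, and the levels of Itga4 and Itgb1bp2 in MB rest on few fragments.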
